A study of Rattus norvegicus with 36 samples.

Results

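Rat ovarian granulosa cells stimulated with follicle-stimulating hormone (FSH) were compared after exposure to 5 µM HPTE and without HPTE. The members are the 3 arrays titled HPTE_5_FSH and the 3 titled HPTE_0_FSH, taken by title, and make 6 of the 36 arrays of the series. Granulosa cells came from Sprague Dawley rats 21 to 27 days old and were plated for 24 h in 5% serum. All groups then received androstenedione for the 48 h of treatment. The series design gives it as 0.1 µM, whereas the sample descriptions write 0.1 M. Both groups compared here received FSH at 3 ng/ml, and they differ in HPTE, at 0 or 5 µM. The groups used for comparison were FSH-treated cells with 1 and 10 µM HPTE, unstimulated (basal) cells with 0, 1 and 5 µM, and cells given 1 mM cAMP, whose chemical form the labels do not name, with 0, 1 and 5 µM. Each group holds 3 arrays, numbered 1 to 3. The labels do not say whether the 3 numbers are separate animals, cultures or wells, and the p-values cover no more than the spread among these arrays, part of which may be technical. RNA from primary cells was amplified from 40 ng and measured on Affymetrix Rat Genome arrays.

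Granulosa cells surround the oocyte and nourish it. FSH binds a receptor on them that couples to adenylyl cyclase, and the resulting cAMP activates protein kinase A, which turns on genes for estrogen synthesis (aromatase, encoded by Cyp19a1, converts androstenedione to estrone), for the receptor of luteinizing hormone and for inhibin. HPTE is the bisphenolic metabolite of the organochlorine pesticide methoxychlor and is known to bind estrogen and androgen receptors. Cyclic AMP given directly enters the same pathway below the FSH receptor.

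One array goes against its label and is named first. On 289 probe sets that separate FSH from cAMP treatment at 1 µM HPTE, with 0 the mean of the cAMP arrays and 1 that of the FSH arrays, the unexposed FSH arrays lay at 0.94, 0.08 and 0.78 for numbers 1, 2 and 3. The unexposed cAMP arrays lay at 0.12, 0.72 and -0.08. Unexposed FSH array number 2 therefore lay near the cAMP arrays, and unexposed cAMP array number 2 near the FSH arrays. Basal arrays at 0 and 5 µM HPTE lay at 1.41 to 1.55 and the exposed FSH arrays at 1.41 to 1.48, beyond the FSH end. A place on this scale therefore does not by itself mark FSH treatment. Whether the unexposed FSH and cAMP arrays number 2 were exchanged was not tested, and no label was changed. Each result below is from all arrays, and for each named gene the text adds the value without unexposed FSH array number 2 wherever its call differs or the difference changes by over 1.5 times.

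The arrays numbered 3 also stood apart from numbers 1 and 2. Median intensities of the 6 arrays ran from 65.8 to 70.4, and correlations between arrays of the same group from 0.965 to 0.983. For Gapdh, the control probe sets at the 3' end exceeded those at the 5' end, a measure of RNA integrity and amplification, by a log2 value of 1.95 to 2.09 on numbers 1 and 2 and of 0.80 to 0.86 on number 3, with group means of 1.66 without and 1.61 with 5 µM HPTE. For actin the same difference was 3.15 to 3.67 on numbers 1 and 2 and 1.95 to 2.38 on number 3. On the first principal component of the arrays, with 34% of the variance, the unexposed FSH arrays lay at 42.1 to 43.2 and the exposed ones at -33 to -18.5. On the second, with 27.2% of the variance, number 3 lay at 51.1 without and 48.6 with HPTE and numbers 1 and 2 between -34.2 and -15.7. Each number is present in both groups.

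Exposure to 5 µM HPTE moved a broad set of transcripts in FSH-treated cells. Of 31042 probe sets, 2029 (6.54%) passed an adjusted p of 0.05 in limma, 1072 higher (3.45%) and 957 lower (3.08%) with HPTE. Among these, 633 were at least 2-fold higher and 385 at least 2-fold lower, and 2023 had the same direction in all 3 pairs of equal number. Without unexposed FSH array number 2, 2019 passed (6.5%), of which 1611 were shared in direction and call, 79.4% of the first set and 79.8% of the second. With the array number as a block, 4426 passed (14.3%), 1987 higher and 2439 lower, so that falls outnumbered rises there. At an unadjusted p under 0.05, 4813 passed (15.5%). From numbers 1 and 2 alone 1414 passed, 873 higher and 541 lower. Counted once per gene, 627 of 14217 genes rose (4.41%) and 550 fell (3.87%), and the median log2 difference over all genes was -0.06. Every gene named below as called over all arrays also passed with the block. Calls given below as lost without 1 array are from fits without the block.

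The largest rise was that of Pamr1, a secreted protein with peptidase-like domains. Its log2 levels were 6.61, 7.23 and 6.87 in unexposed and 11.13, 11.47 and 11.36 in exposed cells. The arrays did not overlap, and the difference of 4.42 ± 0.39 (SE, n = 3 and 3) was 21.3-fold, with an adjusted p of 6.01e-08. Tnfrsf11b, which encodes osteoprotegerin, the decoy receptor of RANK ligand, read 8.01, 9.13 and 9.03 without and 12.63, 12.93 and 13.07 with HPTE. Every exposed array lay above every unexposed one, by a mean of 4.16 ± 0.42 or 17.8-fold (adjusted p = 3.57e-07). Agtr2, the angiotensin II type 2 receptor, read 4.55, 7.68 and 5.05 without HPTE against 9.34, 10.35 and 9.76 with it. Its number 2 was the highest of the unexposed arrays, and the difference of 4.05 ± 0.72 (adjusted p = 0.000384) became 5.01 without that array and 3.45 without unexposed number 1.

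Penk, the precursor of the enkephalins, had levels of 6.94, 6.92 and 6.93 in unexposed and 10.45, 11.18 and 10.53 in exposed cells. That is a 13.8-fold rise (log2 3.79 ± 0.45, adjusted p = 2.24e-06). Cpe, carboxypeptidase E, which trims peptide hormones, went from 10.26, 9.0 and 9.33 to 13.30, 13.37 and 13.23, and its groups did not overlap (log2 3.77 ± 0.45). S1pr1, a receptor for sphingosine 1-phosphate, rose by log2 3.75 ± 0.39 from levels of 6.08, 5.69 and 5.19 to 9.02, 9.46 and 9.74. A second S1pr1 probe set showed a difference of -0.39 and did not pass. The remaining rises among the 15 largest were those of Acta2, Tagln and Fn1, described with their groups below, and of Cemip (3.53), which takes part in hyaluronan breakdown, the matricellular gene Ccn3 (3.51), the small proteoglycan Aspn (3.50), Tcim (3.40), the homeobox factor Meox2 (3.27) and the metalloproteinase Adamts12 (3.11). All 15 passed without unexposed FSH array number 2.

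The largest fall was that of Smoc2, a secreted calcium-binding matrix protein, with log2 levels of 9.98, 11.21 and 10.32 in unexposed and 6.55, 7.46 and 6.33 in exposed cells. The groups were clearly apart, by -3.72 ± 0.39 or 13.2-fold (adjusted p = 4.11e-07). Only 1 of its 3 probe sets passed, and the smallest difference among them was -0.23. Havcr1, known in kidney as KIM-1, read 10.86, 8.44 and 11.38 without and 6.83, 6.12 and 7.01 with HPTE. Unexposed number 2 was the lowest of its group, so the difference of -3.58 ± 0.55 grew to -4.47 without it, and both values passed. Acsbg1, a long-chain acyl-CoA synthetase, went from 11.01, 9.76 and 10.88 to 7.67, 6.43 and 7.34, with no overlap (-3.40 ± 0.41, adjusted p = 2.85e-06). Gstm7, a mu class glutathione S-transferase, read 11.78, 10.52 and 11.45 without and 8.89, 7.27 and 7.58 with HPTE, a 10.1-fold fall (adjusted p = 2.15e-06).

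The potassium channel subunits Kcne4 and Kcnd2 fell by 3.12 and 2.95 on the log2 scale, and the second Kcnd2 probe set also passed with a smaller difference of -0.57. Prlr, the prolactin receptor, read 9.68, 7.80 and 10.86 without and 6.71, 4.66 and 7.62 with HPTE. Its lowest unexposed array and highest exposed array were close, and the difference of -3.11 ± 0.75 (adjusted p = 0.00848) did not pass without unexposed number 3 (-2.41, adjusted p = 0.0976) or without exposed number 2 (-2.28, adjusted p = 0.107). It was -3.94 without unexposed number 2 and -3.76 without exposed number 3, and passed both times. Tgfbi fell by 3.41, the clock-related factor Npas2 by 3.30, the melanosome and exocytosis linker Myrip by 3.08, the junction protein Cgnl1 by 2.96 and Greb1l, a paralog of Greb1, by 2.85. G0s2, an inhibitor of the triglyceride lipase ATGL, had levels of 10.07, 7.02 and 10.24 against 6.16, 6.09 and 6.28, so that the difference of -2.94 became -3.98 without unexposed number 2. Mmd2 fell by 2.79, or by 2.19 without exposed number 2. All 15 falls passed without unexposed FSH array number 2.

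**Figure D1:**
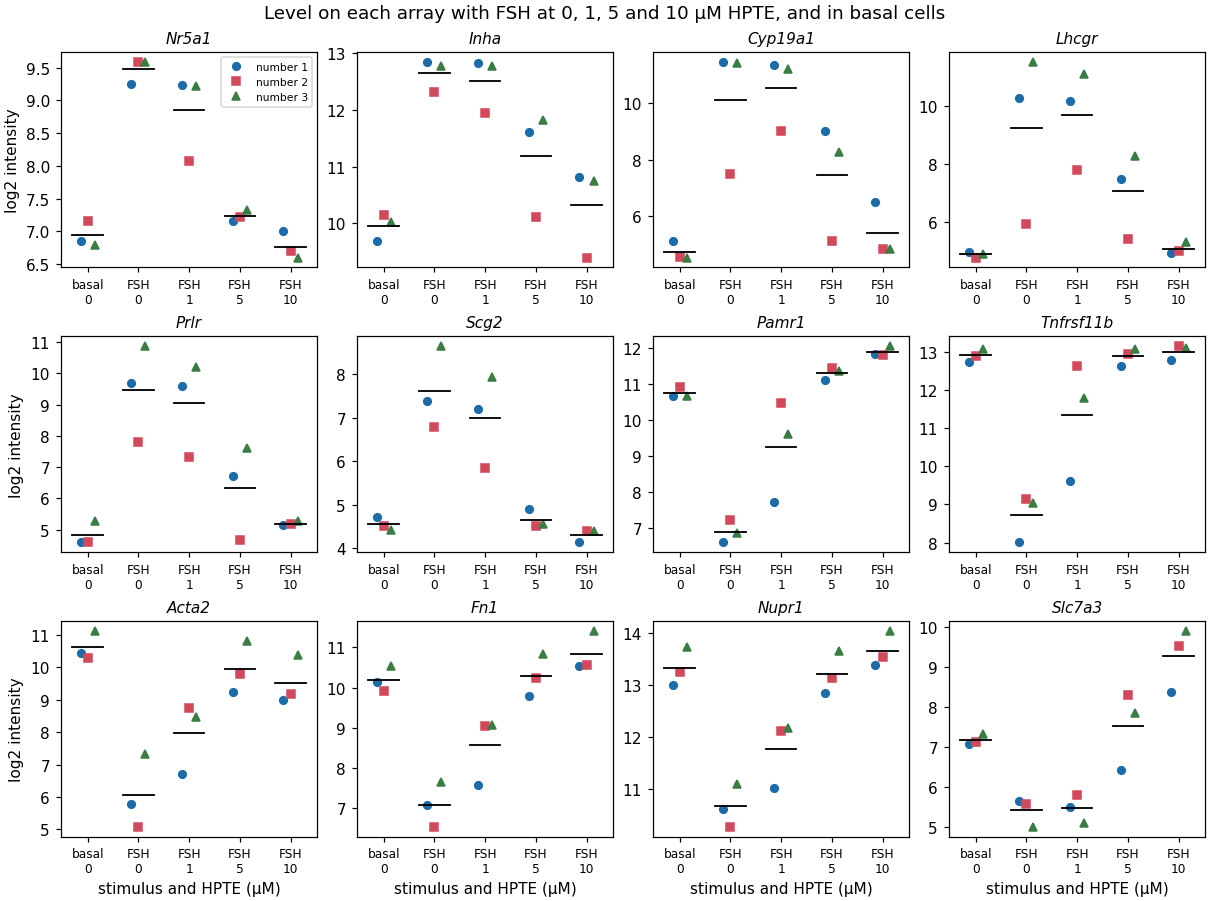
Log2 intensity of 12 genes (vertical axis) on each array of basal cells at 0 µM HPTE and of FSH-treated cells at 0, 1, 5 and 10 µM (horizontal axis); symbols mark the array number and bars the mean of 3 arrays. Pamr1 lay between 11.13 and 11.47 at 5 µM and between 6.61 and 7.23 at 0 µM, and for Cyp19a1 and Lhcgr number 2 was the lowest array at both of these doses.

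Of 18 listed genes of steroid synthesis 14 were measured, of which 5 fell and none rose, against 3.87% falls and 4.41% rises among all genes. Their median log2 difference was -1.39. At an unadjusted p under 0.05, 11 were lower and none higher, against 10.7% of all genes lower and 7.99% higher. The falls numbered 8 without unexposed number 2, where 3.96% of all genes fell and 4.25% rose, and 10 with the block, where 10% of all genes fell and 8.06% rose. They numbered 3 without unexposed number 1 or without exposed number 2, and 2 without unexposed number 3.

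Nr5a1, the nuclear receptor SF-1 that activates most steroidogenic genes, had the steadiest fall of the list. Its log2 levels were 9.25, 9.59 and 9.59 without and 7.16, 7.22 and 7.32 with HPTE. The gap between the groups was many times their spread, with a difference of -2.24 ± 0.23 or 4.73-fold (adjusted p = 2.93e-07) that passed whichever of the 6 arrays was left out. A second Nr5a1 probe set showed -0.29 and did not pass. The related receptor Nr5a2, or LRH-1, read 10.68, 10.59 and 11.64 against 8.99, 8.13 and 9.86 (-1.98 ± 0.53, adjusted p = 0.0191). Its fall did not pass without unexposed number 3 (-1.65, adjusted p = 0.139), exposed number 1 (-1.98, adjusted p = 0.0555) or exposed number 2 (-1.55, adjusted p = 0.157). With the block it passed (adjusted p = 3.48e-07).

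Hsd17b7, a ketosteroid reductase also used in cholesterol synthesis, went from 10.92, 9.20 and 9.84 to 8.18, 8.19 and 8.14. The exposed arrays were nearly equal and all below the unexposed ones (-1.82 ± 0.44, adjusted p = 0.00813; without unexposed number 1 it was -1.35, adjusted p = 0.0893). Hsd11b2, which inactivates glucocorticoids, fell by 0.76 (adjusted p = 0.00832), a call lost without unexposed number 3 (-0.49, adjusted p = 0.131). Cyp17a1, the androgen-forming enzyme of theca cells, was dim and fell by 1.36 (adjusted p = 0.0375); that call was lost without any 1 of the other 5 arrays, with values between -1.42 and -0.82, and it held at -1.90 without unexposed number 2.

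Aromatase and the LH receptor, the classical FSH targets, did not pass over all arrays, and their values varied with the arrays included. Cyp19a1 had log2 levels of 11.49, 7.48 and 11.46 without HPTE and 9.03, 5.08 and 8.26 with it. Number 2 was the lowest array in both groups, so the groups overlapped while each pair of equal number was lower with HPTE. The difference over all arrays was -2.68 ± 0.95 (adjusted p = 0.102). Without unexposed number 2 it was -4.01 ± 0.91 or 16.2-fold and passed (adjusted p = 0.00509), as it did without exposed number 1 (-3.47, adjusted p = 0.0447) and with the block (adjusted p = 0.0451). It was smaller and did not pass without exposed number 2 (-1.50, adjusted p = 0.563), unexposed number 1 (-2.01, adjusted p = 0.362) or unexposed number 3 (-2.03, adjusted p = 0.439). Lhcgr read 10.27, 5.94 and 11.50 against 7.48, 5.43 and 8.26, again with number 2 lowest in each group. Its difference was -2.18 ± 1.00 (adjusted p = 0.268) over all arrays and -3.83 ± 0.88 or 14.2-fold (adjusted p = 0.00544) without unexposed number 2. It was -1.05 (adjusted p = 0.838) without unexposed number 3, -1.37 (adjusted p = 0.687) without exposed number 2 and -2.78 (adjusted p = 0.179) without exposed number 3, and it did not pass with the block (adjusted p = 0.143).

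The enzymes of the first steps were lower without passing. Cyp11a1, which cleaves the cholesterol side chain, read 13.02, 11.31 and 12.31 without and 11.31, 8.41 and 9.84 with HPTE, and the groups met at 11.31 (-2.36 ± 0.79, adjusted p = 0.0757, and 0.001 with the block). It passed without exposed number 1 (-3.09, adjusted p = 0.025) and was -1.64 (adjusted p = 0.399) without exposed number 2. Star, which carries cholesterol into mitochondria, differed by -1.43 ± 0.54 (adjusted p = 0.142) and Hsd3b1 by -1.22 ± 0.42 (adjusted p = 0.0935); both passed with the block (adjusted p = 0.00109 and 0.00758). Hsd17b1, which reduces estrone to estradiol, differed by -1.02 ± 0.63 (adjusted p = 0.514), a value carried by exposed number 2, without which it was -0.07. The electron donors Fdx1 (-1.71, adjusted p = 0.127) and Por (-0.97, adjusted p = 0.148) passed without unexposed number 2, at -2.31 and -1.47; Fdx1 also passed without exposed number 1 (-2.31, adjusted p = 0.0406) and with the block (adjusted p = 0.0118), and Por did not pass with the block (adjusted p = 0.0608).

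Of 25 measured genes of FSH-driven granulosa differentiation, 6 fell (24%) and 4 rose (16%), with a median of -0.50, against 3.87% and 4.41% of all genes. Without exposed number 2 the counts were 1 and 3, without unexposed number 3 they were 3 each, and with the block, where 10% of all genes fell and 8.06% rose, 10 and 5. Hao2, a peroxisomal hydroxy acid oxidase, fell from 9.41, 9.05 and 9.89 to 7.09, 5.73 and 7.45 with no overlap (-2.69 ± 0.40, adjusted p = 4.57e-05). Inha, the inhibin alpha subunit, read 12.84, 12.30 and 12.77 without and 11.61, 10.11 and 11.82 with HPTE. All exposed arrays were lower, number 2 the most (-1.46 ± 0.35, adjusted p = 0.00721), and without exposed number 2 the fall was no longer called (-0.92, adjusted p = 0.114). The beta subunits differed less, with Inhba at -0.33 ± 0.12 (adjusted p = 0.109, and 0.0341 at -0.44 without exposed number 1) and Inhbb at -0.63 ± 0.36 (adjusted p = 0.453), although a dimmer Inhba probe set passed at -2.65. Inhbb was at -0.01 without exposed number 2.

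Crabp2, a carrier of retinoic acid, fell by 2.24 (adjusted p = 0.0064) and lost its call without unexposed number 3 (-1.81, adjusted p = 0.0731) or exposed number 2 (-1.48, adjusted p = 0.102). Nr0b2, the receptor SHP, fell by 1.13 and lost its call without the same arrays (-0.82 and -0.97). Inmt, a methyltransferase, read 8.5, 10.44 and 7.77 against 8.16, 5.71 and 5.93; the groups overlapped, and the fall of 2.30 (adjusted p = 0.00944) was not called without unexposed number 2 (-1.53, adjusted p = 0.111), exposed number 2 (-1.86, adjusted p = 0.0916) or exposed number 3 (-1.97, adjusted p = 0.069) and was -3.09 without exposed number 1.

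The rising members of that list included growth factor genes. Igf1, insulin-like growth factor 1, went from 11.37, 10.43 and 11.43 to 12.29, 12.43 and 12.69 (1.39 ± 0.25, adjusted p = 0.000508), and every exposed array was the higher. Igfbp5, a binding protein for that factor, rose by 0.56 ± 0.13 and Zfpm2, the GATA4 cofactor FOG2, by 0.77 ± 0.17, and both passed whichever of the 6 arrays was left out. Wt1, a transcription factor of immature granulosa cells, rose by 0.99 (adjusted p = 0.0286), a call lost without unexposed number 3 (0.86), exposed number 1 (0.81) or exposed number 2 (1.05).

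Of 27 measured genes of cAMP and protein kinase A signalling 5 were called, 2 lower (7.41%) and 3 higher (11.1%), with a median of -0.17, against 3.87% and 4.41% of all genes. With the block, where 10% of all genes fell and 8.06% rose, 6 were lower and 4 higher. Without unexposed number 2 the counts were 4 and 3. Sik1, a salt-inducible kinase that protein kinase A induces and inhibits, fell from 11.23, 10.87 and 11.17 to 9.96, 9.12 and 9.48, with no overlap (-1.57 ± 0.29, adjusted p = 0.000591). Prkar2b, a regulatory subunit of protein kinase A, fell by 0.63 (adjusted p = 0.00551), a call lost without exposed number 2 (-0.48, adjusted p = 0.0717). The anchoring protein Akap12 rose by 2.59 ± 0.46 and the MAP kinase phosphatase Dusp1 by 1.38 ± 0.31, each with no overlap. Sik2 rose by 1.21 (adjusted p = 0.0127) with overlapping arrays and lost its call without unexposed number 1 (0.87), unexposed number 3 (1.08) or exposed number 2 (1.07). Crem (-1.06, adjusted p = 0.0705) and Pde4d (-1.05, adjusted p = 0.227), both feedback regulators of cAMP, passed without unexposed number 2, at -1.52 and -1.69; with the block Crem passed (adjusted p = 0.0349) and Pde4d did not (adjusted p = 0.073). The phosphodiesterase gene Pde4b (-0.78, adjusted p = 0.104) passed with the block (adjusted p = 0.00562) and without exposed number 1 (-1.0).

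In the list of ovulatory and EGF-like genes, 1 of 16 was called, the SNARE protein gene Snap25, which fell from 8.39, 6.44 and 6.94 to 5.31, 5.06 and 4.53. Each exposed array was below each unexposed one (-2.29 ± 0.42, adjusted p = 0.000591). The call is 6.25% of the list, against 3.87% falls among all genes. Without unexposed number 2, 5 members fell. With the block, where 10% of all genes fell, 2 members did. The epidermal growth factor family genes Areg and Ereg differed by -1.07 and -0.96 (adjusted p = 0.0654 and 0.162), and they passed without unexposed number 2 at -1.47 and -1.41; with the block Areg passed (adjusted p = 0.0193) and Ereg did not (adjusted p = 0.0514). Ptgs2, cyclooxygenase 2, was the least settled gene of the list, with 8.53, 5.11 and 9.81 against 7.29, 6.62 and 7.32. Its difference was -0.74 (adjusted p = 0.742) over all arrays, -2.10 (adjusted p = 0.0155) without unexposed number 2 and 0.25 without unexposed number 3.

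Promoter sequences are shown for genes of the falling groups that carry the core of a cAMP response element, the letters TGACG or, on the other strand, CGTCA. They are RefSeq windows on GRCr8 from 250 bases before to 50 after the start of the gene, printed 5′ to 3′ along the gene with the matches in capitals. Scg2, whose product is packed into secretory granules, lies at chr9:88256817-88257116 on the minus strand; its log2 levels were 7.39, 6.79 and 8.64 without and 4.90, 4.52 and 4.56 with HPTE. Its 2 matches, 1 on each strand, overlap and begin 123 bases before the start. Inha (chr9:84442859-84443158, plus strand) has 1 match 117 bases before the start, and Sik1 (chr20:9958597-9958896, minus strand) has 2, the first 191 bases before it.
Scg2: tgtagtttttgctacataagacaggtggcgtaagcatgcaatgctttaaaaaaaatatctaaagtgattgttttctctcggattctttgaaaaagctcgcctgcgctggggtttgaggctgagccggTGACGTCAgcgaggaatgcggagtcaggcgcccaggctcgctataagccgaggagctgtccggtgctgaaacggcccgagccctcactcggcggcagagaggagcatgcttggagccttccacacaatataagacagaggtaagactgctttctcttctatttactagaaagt
Inha: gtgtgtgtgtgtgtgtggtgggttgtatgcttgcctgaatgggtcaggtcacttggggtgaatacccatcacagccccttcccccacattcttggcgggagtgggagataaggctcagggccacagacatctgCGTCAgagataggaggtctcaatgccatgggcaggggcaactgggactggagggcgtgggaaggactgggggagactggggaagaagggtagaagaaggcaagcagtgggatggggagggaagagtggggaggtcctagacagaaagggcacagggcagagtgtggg
Sik1: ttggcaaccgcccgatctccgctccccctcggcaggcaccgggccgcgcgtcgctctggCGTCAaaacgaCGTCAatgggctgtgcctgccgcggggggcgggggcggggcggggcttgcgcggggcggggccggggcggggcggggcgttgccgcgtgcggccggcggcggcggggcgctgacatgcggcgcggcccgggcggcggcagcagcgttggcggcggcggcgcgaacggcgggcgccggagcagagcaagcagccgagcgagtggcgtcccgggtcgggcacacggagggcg
These matches are a description and not a site of binding. Of the 15 largest falls, 14 had a window and 3 of those held a match (21.4%). Among the 15 largest rises 3 of the 9 with a window did (33.3%), and over all 27457 genes with a window the share was 23.0%.

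Genes of contractile filaments and smooth muscle showed the highest share of rises among the lists. Of 20 measured genes 12 rose and none fell, with a median log2 difference of 1.21, against 4.41% rises among all genes. At an unadjusted p under 0.05, 15 were higher and none lower, against 7.99% and 10.7% of all genes. The count was 11 without unexposed number 2, 16 with the block, and between 9 and 12 when any single array was left out. With the block 8.06% of all genes rose.

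Acta2, smooth muscle alpha actin, had log2 levels of 5.78, 5.08 and 7.34 without and 9.23, 9.81 and 10.82 with HPTE. The lowest exposed array was well above the highest unexposed one, and the rise of 3.89 ± 0.55 was 14.8-fold (adjusted p = 2.12e-05). It was 4.53 without unexposed number 3. Tagln, the actin-binding protein transgelin, read 8.72, 8.09 and 10.86 against 11.77, 12.38 and 13.24, with number 3 highest in both groups (3.24 ± 0.74, adjusted p = 0.00491, and 4.06 without unexposed number 3). Cald1, caldesmon, went from 10.97, 10.75 and 11.54 to 13.05, 13.10 and 13.36, without overlap (2.08 ± 0.27, adjusted p = 7.91e-06), and 2 of its 3 probe sets passed. Myl9, the regulatory light chain of smooth muscle myosin, rose by 2.30 ± 0.41 and the tropomyosin gene Tpm2 by 2.28 ± 0.39. Non-muscle myosin Myh9 rose by 1.58 ± 0.20, the crosslinkers Flna and Actn1 by 1.30 and 1.12 and vinculin (Vcl) by 0.99, and these 4 passed whichever of the 6 arrays was left out.

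Other members were less steady when single arrays were left out. With the block Cnn2, Csrp1 and Lmod1 passed (adjusted p = 7.29e-05, 1.14e-05 and 0.00396). Cnn2, calponin 2, went from 12.26, 11.99 and 11.25 to 13.35, 13.31 and 12.95 (1.37 ± 0.39, adjusted p = 0.0271) and lost its call without unexposed number 3 (1.08) or exposed numbers 1 (1.30) or 2 (1.32). Csrp1 rose by 1.41 (adjusted p = 0.0299), which did not pass without unexposed numbers 1 (1.42) or 2 (1.13) or exposed numbers 2 (1.52) or 3 (1.04). Lmod1, leiomodin, rose by 0.74 (adjusted p = 0.0113) and lost its call without unexposed number 1 (0.64) or exposed numbers 2 (0.58) or 3 (0.68). Tpm1 differed by 1.52 ± 0.51 (adjusted p = 0.0825) and passed with the block (adjusted p = 1.66e-06) and without unexposed number 3 (1.98); 5 of its 7 probe sets passed. The Cnn2 window at chr7:10370263-10370562 (GRCr8, minus strand) is shown because it holds a CArG box, the element bound by serum response factor, 71 bases before the start and in capitals.
Cnn2: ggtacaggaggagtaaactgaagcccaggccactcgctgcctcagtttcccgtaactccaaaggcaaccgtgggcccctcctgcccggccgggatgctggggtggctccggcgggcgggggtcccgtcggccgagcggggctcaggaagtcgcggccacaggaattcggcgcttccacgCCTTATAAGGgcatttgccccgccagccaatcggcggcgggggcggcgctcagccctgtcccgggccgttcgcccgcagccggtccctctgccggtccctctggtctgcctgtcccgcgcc
A CArG box was present in the windows of 1.77% of all genes and in none of those searched among the 15 largest rises (9 windows) and falls (14 windows). Acta2 and Tagln had no window in the table and were not searched.

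Of 31 measured extracellular matrix genes, 13 rose (41.9%) and 1 fell (3.23%), with a median of 0.39, against 4.41% and 3.87% of all genes; the rises numbered 10 without unexposed number 2, 9 without unexposed number 1, 8 without exposed number 2 or exposed number 3, and 14 with the block, under which 4 fell. With the block 10% of all genes fell and 8.06% rose. Without unexposed number 2, 3 members of the list fell. Fn1, fibronectin, read 7.07, 6.54 and 7.66 without and 9.78, 10.24 and 10.83 with HPTE. The groups lay about 3 log2 units apart (3.20 ± 0.46 or 9.16-fold, adjusted p = 3.12e-05). Spp1, osteopontin, rose from 7.19, 6.79 and 7.82 to 9.01, 9.42 and 10.50, with no overlap (2.38 ± 0.54, adjusted p = 0.00448). Tenascin C (Tnc) rose by 1.79 ± 0.24 from levels of 5.18, 5.08 and 5.2, and the fibrillar collagen gene Col3a1 by 1.86 ± 0.31. The basement membrane collagen Col4a2 rose by 1.31 ± 0.21.

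Lox, lysyl oxidase, which crosslinks collagen, read 9.85, 12.11 and 10.89 against 12.58, 12.87 and 12.99; unexposed number 2 was close to the exposed arrays (1.86 ± 0.42, adjusted p = 0.00409; 2.45 without unexposed number 2; 1.31 and not called without unexposed number 1). Biglycan (Bgn) rose by 2.01 (adjusted p = 0.0121), a call lost without unexposed number 2 (1.76, adjusted p = 0.0666) or exposed number 3 (1.62, adjusted p = 0.1). Sparc, osteonectin, rose by 1.24 (adjusted p = 0.0429) and lost its call without any 1 of the 6 arrays except unexposed number 3, with values of 0.92 to 1.35. Col5a2 rose by 1.28 (not called at 1.04 without unexposed number 3 or at 1.19 without exposed number 2) and Col11a1 by 0.80 (not called at 0.52 without unexposed number 1 or at 0.74 without exposed number 2). Col5a1 (0.89, not called at 0.74 without exposed number 3), Col4a1 (0.83, not called without unexposed numbers 2 or 3 or exposed numbers 2 or 3, at 0.59 to 0.83) and the protease inhibitor Timp2 (0.70, not called without unexposed numbers 1 or 3 or exposed numbers 2 or 3, at 0.60 to 0.74) complete the rises. With the block all of these rises passed, with Bgn at an adjusted p of 2.77e-08 and Sparc at 1.21e-06. Timp3 fell by 0.87 ± 0.19 (adjusted p = 0.00308).

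In the list of CCN proteins and genes of the TGF-beta response, 10 of 24 rose (41.7%) and 1 fell (4.17%), with a median of 0.35, against 4.41% and 3.87% of all genes. Without unexposed number 2 the counts were 11 and 3, and with the block, where 8.06% of all genes rose and 10% fell, 12 and 3. Among ligands and antagonists, Tgfb3 rose from 5.93, 5.29 and 5.82 to 7.68, 7.70 and 7.92 (2.08 ± 0.26, adjusted p = 4.01e-06), Tgfb2 by 1.69 ± 0.30, the bone morphogenetic protein gene Bmp4 by 2.07 ± 0.35 and its antagonist Grem1 by 1.94 ± 0.37. For each of these 4 genes the exposed arrays lay above the unexposed ones. Ccn2, connective tissue growth factor, was already abundant at 12.34, 12 and 11.99 and read 13.29, 13.33 and 13.36 with HPTE (1.21 ± 0.16, adjusted p = 1.25e-05). Ccn3 went from 6.87, 8.64 and 7.56 to 10.64, 11.17 and 11.80. Ccn1 rose by 1.16 (not called without unexposed numbers 1 or 3 or exposed numbers 2 or 3, at 0.90 to 1.11) and Ccn5 by 0.64 (not called at 0.47 without unexposed number 3 or at 0.56 without exposed number 1). Pamr1 and Tnfrsf11b, above, are also in this list. The fall was that of Tgfbi, a matrix protein named for its induction by TGF-beta, which read 7.58, 8.23 and 8.70 without and 4.63, 4.98 and 4.67 with HPTE, the opposite direction to the rest of the called members.

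**Figure D2:**
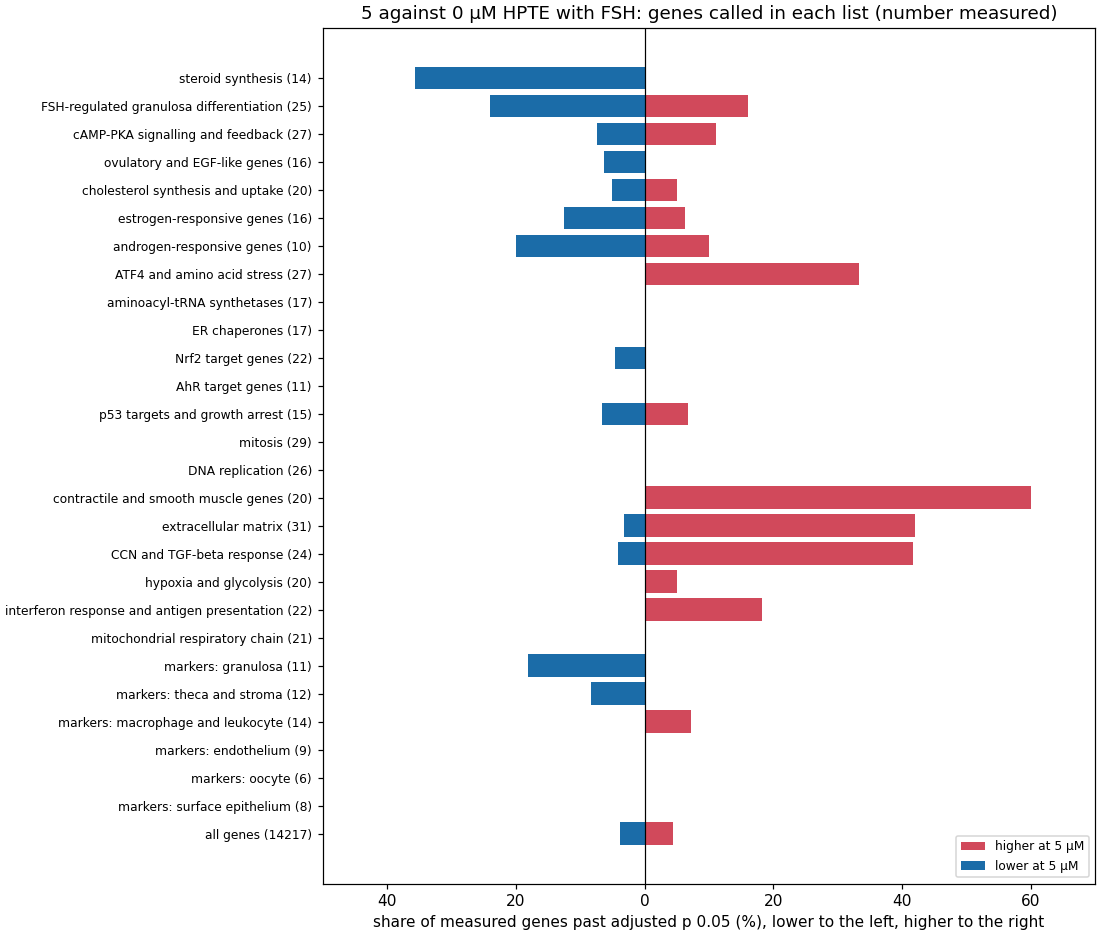
Share of the measured genes of each list (horizontal axis, percent) that were called higher (right) or lower (left) at 5 against 0 µM HPTE with FSH; the number measured is in brackets and the lowest bar is all genes. Contractile genes reach 60% higher and steroid synthesis genes 35.7% lower, against 4.41% and 3.87% of all genes.

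Of 27 measured targets of ATF4 and amino acid stress, 9 rose (33.3%) and none fell, with a median of 0.64, against 4.41% and 3.87% of all genes; the rises numbered 6 without unexposed number 2, 6 also without unexposed number 3, exposed number 2 or exposed number 3, 11 without exposed number 1 and 16 with the block, where 8.06% of all genes rose. At an unadjusted p under 0.05, 15 were higher and 1 lower, against 7.99% and 10.7% of all genes. Nupr1, a stress-induced chromatin protein, read 10.63, 10.28 and 11.10 without and 12.84, 13.13 and 13.65 with HPTE, without overlap (2.54 ± 0.37, adjusted p = 3.44e-05). Slc7a3, a transporter of cationic amino acids, went from 5.66, 5.58 and 5.01 to 6.43, 8.30 and 7.86, with number 1 the lowest exposed array (2.11 ± 0.36, adjusted p = 0.000216). The VLDL receptor gene Vldlr rose by 1.75 ± 0.18, the neutral amino acid transporter gene Slc1a4 by 1.28 ± 0.21 and the mitochondrial folate enzyme gene Aldh1l2 by 1.24 ± 0.27; these 3 passed whichever of the 6 arrays was left out. Asparagine synthetase (Asns) rose by 1.17 (not called without unexposed numbers 2 or 3 or exposed number 2, at 0.99 to 1.12) and the serine synthesis gene Psat1 by 0.94 (not called without unexposed number 2, at 0.65, or exposed number 3, at 0.85). The transporter genes Slc7a1 (0.55) and Slc6a9 (0.68) also passed, with calls lost without any 1 of the arrays except unexposed number 1 for Slc7a1 (0.30 to 0.62) and without unexposed numbers 1 or 3 or exposed numbers 2 or 3 for Slc6a9 (0.57 to 0.70).

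Other stress genes of that list did not pass. The pseudokinase gene Trib3 differed by 1.12 (adjusted p = 0.0619, and 0.00371 at 1.62 without exposed number 1) and the glutathione-degrading enzyme gene Chac1 by 0.81 (adjusted p = 0.106); both passed with the block (adjusted p = 0.0206 and 0.0147). The mTOR inhibitor gene Ddit4 went the other way, at 11.30, 7.91 and 11.80 against 9.09, 6.84 and 9.78, with overlap (-1.76, adjusted p = 0.303). It passed without unexposed number 2 (-2.98, adjusted p = 0.0197) and with the block (adjusted p = 0.0373), and was -0.90 (adjusted p = 0.777) without exposed number 2, -1.03 (adjusted p = 0.8) without unexposed number 3 and -2.37 (adjusted p = 0.165) without exposed number 3. None of the 17 aminoacyl-tRNA synthetases and none of the 17 endoplasmic reticulum chaperones was called in limma, and 1 of each was higher at an unadjusted p under 0.05. With the block, where 8.06% of all genes rose, 3 synthetases and 2 chaperones rose.

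Of 16 measured genes known to respond to estrogen, 2 fell (12.5%) and 1 rose (6.25%), against 3.87% and 4.41% of all genes, so the counts rest on 3 genes. With the block, where 10% of all genes fell and 8.06% rose, 2 fell and 3 rose. Greb1, an estrogen receptor target, fell from 10.98, 11.81 and 10.81 to 9.68, 9.61 and 8.91, and Nrip1, a corepressor of nuclear receptors, from 11.62, 11.67 and 11.56 to 10.77, 10.72 and 10.49. Neither overlapped between groups (-1.80 ± 0.39, adjusted p = 0.00306, and -0.95 ± 0.12, adjusted p = 6.23e-06), although a second Greb1 probe set showed -0.04. Fhl2 rose by 1.36 ± 0.21. Among 10 androgen-responsive genes 2 fell and 1 rose. Fkbp5, a cochaperone of steroid receptors, fell by 0.91 ± 0.16 and Ndrg1 rose by 1.47 ± 0.16, both without overlap. Sgk1 fell by 0.92 (adjusted p = 0.0164) with overlapping arrays and lost its call without unexposed numbers 1 (-0.78) or 3 (-0.78) or exposed number 2 (-0.60). Kitlg, the ligand of the oocyte receptor KIT, was at -1.50 (adjusted p = 0.171), and at -2.44 (adjusted p = 0.00446) without unexposed number 2. It was -0.75 (adjusted p = 0.758) without unexposed number 3 and did not pass with the block (adjusted p = 0.078).

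Of 20 genes of cholesterol synthesis and uptake, 1 fell and 1 rose (5% each, against 3.87% and 4.41% of all genes). With the block, where 10% of all genes fell and 8.06% rose, 3 fell and 2 rose. Scarb1, the high-density lipoprotein receptor SR-BI that supplies cholesterol for steroid synthesis, read 11.81, 9.81 and 12.07 without and 9.31, 8.09 and 9.37 with HPTE. No exposed array reached the unexposed ones (-2.30 ± 0.51, adjusted p = 0.00409); the difference was -3.01 without unexposed number 2 and -1.88 (adjusted p = 0.0505) without unexposed number 3. The rise was that of Vldlr, given above. The synthesis genes Fdft1 (-1.0, adjusted p = 0.0646) and Dhcr7 (-0.70, adjusted p = 0.0709) did not pass over all arrays; the first passed without unexposed number 2 (-1.42) and the second without unexposed number 3 (-0.95). Both passed with the block (adjusted p = 0.0292 and 0.000742).

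The cell type makeup was checked with marker genes. All 11 measured granulosa markers were above the array median on at least 1 of the 6 arrays. Their summed intensity was 42940 to 53990 in unexposed and 31870 to 41930 in exposed cells, so the groups did not overlap. In basal cells the sum was 30770 to 32800 without and 30620 to 32620 with 5 µM HPTE. Over all arrays 2 granulosa markers fell (18.2%), Inha and Nr5a2. For this and the other marker lists, the shares among all genes over all arrays were 3.87% lower and 4.41% higher. Of all genes 3.96% fell without unexposed number 2, and 10% fell with the block. Without unexposed number 2 the count was 5, with Kitlg, the ovarian transcription factor gene Foxl2 (-0.44, against -0.35 and adjusted p = 0.0915 over all arrays) and the activin-binding follistatin gene Fst (-1.08, against -0.76 and adjusted p = 0.11). Foxl2 and Fst also passed with the block (adjusted p = 0.0223 and 0.0298), where 5 markers fell, and Foxl2 without exposed number 1 (-0.44). None fell without exposed number 2 and 1 without unexposed number 3. In bulk RNA, fewer cells of a type and less RNA per cell cannot be told apart. Theca and stroma markers summed to 8213 to 15110 without and 6743 to 10980 with HPTE, and 1 of 12 fell, Cyp17a1, joined by Lhcgr without unexposed number 2. Macrophage and leukocyte markers summed to 757.6 to 2594 and 1403 to 3284, with 6 of 14 below the array median on all 6 arrays and 1 risen, the lipopolysaccharide co-receptor gene Cd14 (1.21 ± 0.25, adjusted p = 0.00216). Of 9 endothelial markers 6, of 6 oocyte markers 3 and of 8 surface epithelium markers 5 were below the median on all 6 arrays, and none of these 3 lists had a call over all arrays. The angiopoietin receptor gene Tek was at -1.16 (adjusted p = 0.122) and passed at -1.86 without unexposed number 2, but not with the block (adjusted p = 0.0647). The part of other cell types in the rises and falls above was not tested.

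To see how the exposed cells compared with the response to FSH itself, genes were taken from arrays that share none with this comparison, FSH against basal at 1 µM HPTE, by a change of at least 2-fold with no overlap. FSH raised 196 genes there, and 140 of these (71.4%) fell at 5 µM HPTE while none rose, with a median of -1.45. FSH lowered 221, and 190 of these (86%) rose at 5 µM while none fell, with a median of 1.63. Among all genes 3.87% fell and 4.41% rose. Without unexposed number 2 the counts were 157 and 179. The falls numbered 104 without unexposed number 1, 102 without unexposed number 3, 97 without exposed number 2 and 115 without exposed number 3, and the rises at least 158 whichever of the 6 arrays was left out. The same 196 and 221 genes had median 5 µM differences of -0.04 and 0.05 in basal cells and of -0.02 and 0.03 in cAMP-treated cells. Basal cells received no FSH and had no response to it that could be lost. Their medians therefore do not test whether the 5 µM effect needs FSH. The cAMP medians include unexposed cAMP array number 2.

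Against basal cells at the same HPTE dose, FSH changed little at 5 µM. Only 1 probe set (0.00322%) differed between FSH-treated and basal cells in limma, 5 did with the block, and 424 at an unadjusted p under 0.05, while 1736 (5.59%) differed between FSH-treated and cAMP-treated cells at 5 µM. These comparisons share the exposed FSH arrays with the main one. For the 15 largest rises the FSH minus basal difference at 5 µM lay between -0.94 and 0.10, and for the 15 largest falls between -0.11 and 1.66. Pamr1 read 10.67, 10.93 and 10.68 and Tnfrsf11b 12.74, 12.88 and 13.07 in unexposed basal cells, beside 11.13, 11.47 and 11.36 and 12.63, 12.93 and 13.07 with FSH and 5 µM HPTE. Cyp19a1 read 5.11, 4.51 and 4.5 in unexposed basal cells and 9.03, 5.08 and 8.26 with FSH and 5 µM HPTE. The latter level was the higher within each number. Between FSH-treated and basal cells, both at 5 µM HPTE, the Cyp19a1 difference did not pass (2.90, adjusted p = 1.0). A p that misses the threshold does not show that the 2 states were equal.

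The 5 µM effect with FSH was then tested against that in basal cells and in cAMP-treated cells, which share no arrays with it. On their own those 2 effects gave 4 called probe sets (0.0129%) in basal cells and 1 (0.00322%) with cAMP in limma. At an unadjusted p under 0.05 they gave 527 and 2624. With the block 36 were called in basal cells and 23 with cAMP. Omitting unexposed FSH number 2 together with unexposed cAMP number 2 gave 6 and 0 calls. At an unadjusted p under 0.05 that fit gave 589 in basal cells, 4804 with cAMP and 4616 with FSH. The few calls with cAMP therefore do not show that 5 µM HPTE had no effect there. The effect with FSH differed from that in basal cells at 476 probe sets (1.53%, with 1.08% higher and 0.454% lower) and from that with cAMP at 640 (2.06%, with 1.24% higher and 0.821% lower). With the block these counts were 1651 (1004 higher and 647 lower) and 1991 (946 higher and 1045 lower). Leaving out unexposed number 2 of the FSH arrays gave 662 and 698, and leaving out number 2 of the unexposed cAMP arrays as well gave 825 (469 higher and 356 lower) and 1033 (418 higher and 615 lower). Against cAMP, higher differences outnumbered lower ones over all arrays and without unexposed FSH number 2 alone (388 higher and 310 lower). The balance turned with the block and with number 2 of both the FSH and cAMP arrays left out. Without 1 array the count against basal fell to between 276 and 315 for unexposed FSH number 3, exposed FSH numbers 2 and 3, unexposed basal number 3 and exposed basal numbers 1 and 2. Without exposed FSH number 2 or exposed cAMP number 3 the count against cAMP was 411 or 387.

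Of the 15 largest rises, 11 had a larger effect with FSH than in basal cells and 14 than with cAMP; of the 15 largest falls, 12 and 9 did. With unexposed number 2 of the FSH and cAMP arrays left out, 14 of the falls and 14 of the rises were called against cAMP, and 13 of the rises were called against basal cells without unexposed FSH number 2. These genes were chosen for their difference with FSH, which is one side of each test. Tnfrsf11b differed by 4.07 ± 0.60 from basal (adjusted p = 0.000372) and by 4.14 ± 0.60 from cAMP (adjusted p = 0.000326), its own 5 µM differences being 0.09 in basal and 0.02 in cAMP-treated cells. Pamr1 differed by 3.86 ± 0.55 and 3.11 ± 0.55, with 5 µM differences of 0.56 and 1.31 in the other cells. For Nr5a1 the effect with FSH was lower by -2.0 ± 0.32 than in basal cells (adjusted p = 0.000886) and by -2.15 ± 0.32 than with cAMP (adjusted p = 0.000445). With cAMP, Nr5a1 read 9.09, 9.68 and 8.87 without and 8.74, 9.42 and 9.20 with 5 µM HPTE.

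Among the lists, 6 of the 20 contractile genes rose more with FSH than in basal cells and 9 more than with cAMP, and 7 of the 24 CCN and TGF-beta genes rose more in each test. Over all genes 1.45% and 1.66% were called higher in these tests and 0.626% and 1.06% lower. In steroid synthesis 1 of 14 genes, Nr5a1, was called lower in each. For Cyp19a1 the differences of effect were -2.54 ± 1.34 (adjusted p = 0.702) from basal and -2.13 ± 1.34 (adjusted p = 0.662) from cAMP. Leaving out unexposed number 2 of both FSH and cAMP arrays, the difference from cAMP was -4.78 (adjusted p = 0.00728).

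**Figure D3:**
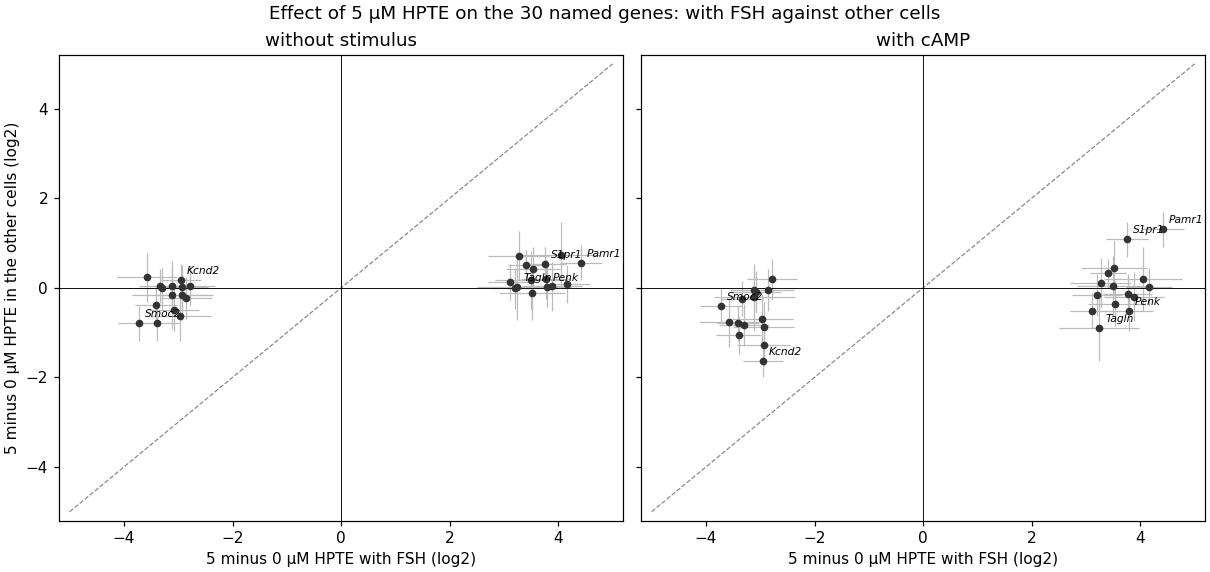
Log2 difference at 5 against 0 µM HPTE with FSH (horizontal axis) and in basal (left) or cAMP-treated cells (right; vertical axis) for the 15 largest rises and the 15 largest falls; error bars are 1 SE of the fit and the dashed line marks equal effects. In basal cells all 30 points lie between -0.79 and 0.74, and with cAMP between -1.63 and 1.31.

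Across doses with FSH, 2 probe sets (0.00644%) were called at 1 µM and 2624 (8.45%) at 10 µM against 0 µM; all 3 dose comparisons share the unexposed arrays, so their values are given side by side. The 15 largest rises had medians of 1.86 at 1 µM and 3.68 at 10 µM, and the 15 largest falls of -0.73 and -3.35. At 1 µM array number 2 lay closest to the exposed state, with Pamr1 at 7.72, 10.49 and 9.61 and Cpe at 10.16, 12.73 and 10.67. At 10 µM, Nr5a1 read 7.01, 6.70 and 6.60 and Pamr1 11.84, 11.81 and 12.06, near their 5 µM levels. Cyp19a1 read 6.50, 4.82 and 4.81 at 10 µM, below its 5 µM levels on each array of equal number. The amino acid transporter gene Slc7a3 read 8.39, 9.54 and 9.91 at 10 µM, above its 5 µM level on each array of equal number.

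**Figure D4:**
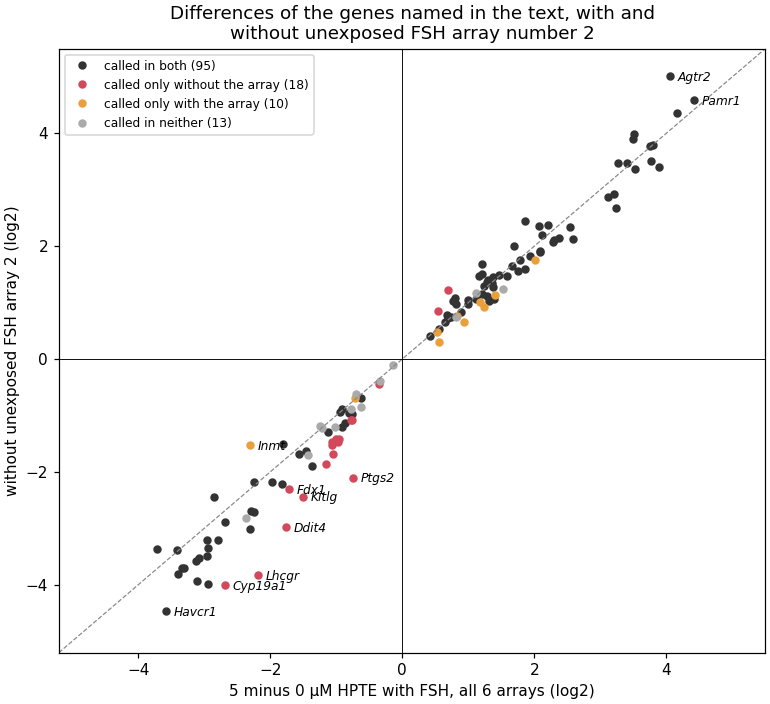
Log2 difference at 5 against 0 µM HPTE with FSH of the 136 genes named in the text, from all 6 arrays (horizontal axis) and without unexposed FSH array number 2 (vertical axis); colours show in which fit each gene was called and the dashed line marks equal values. Of these genes 95 were called in both, 18 without the array alone and 10 with it alone.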

How the data were processed

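The series holds 36 arrays in 12 groups of 3, of which 6 are compared here. The deposited values are linear intensities per probe set. The submitters' processing notes name RMA and the series design names ArrayAssist; the sources used here do not give their versions or the number of normalization runs. The intensities were taken as deposited and put on the log2 scale. After 57 control probe sets were left out, 31042 were tested with limma 3.58.1 (R 4.3.3): 12 group means, moderated over 24 residual degrees of freedom, 2-sided, with Benjamini-Hochberg adjustment over all probe sets and a threshold of 0.05. "Rose", "fell" and "called" refer to that threshold.

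The platform annotation gave 1 symbol for 20826 probe sets, several for 436 and none for 9780; only the first were named. A gene was represented by its probe set with the highest mean, for 14217 genes, 4525 of which had more than 1. Text genes are the 15 largest rises and falls with non-overlapping arrays, the 10 largest each way without unexposed FSH array number 2, the 3 largest each way in each difference of effects, and list members. Of 522 list members 468 were measured; the others were not analysed here. The comparison, members and lists were chosen with earlier results of these data known. The shares of genes called in the lists are therefore a description and not an independent test. Same-numbered unexposed and exposed arrays deviated together from their group means, with correlations of 0.653, 0.518 and 0.823. Between different numbers the correlation was at most 0.0157, but deviations from a mean of 3 arrays cancel out, which by itself lowers that value. Arrays of equal number thus varied together, although the labels do not say what a number shares.

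On simulated data in which 100 of 31042 probe sets were changed by each size, the main comparison recovered 64% of those changed by 1 on the log2 scale and 96% of those changed by 2, with 8 false calls. The simulated arrays had independent noise, no effect of the array number, no exchanged arrays and few changed probe sets. These figures therefore do not give the recovery or the false calls in the deposited data. With 3 arrays in a group, their number limits the precision. The alternatives were the array number as a block, each array left out, quantile normalization, median centring, dim probe sets left out, an intensity trend, the 6 arrays alone, numbers 1 and 2 alone and the median over the probe sets of a gene.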

Additional observations from a re-analysis of the deposited data

Results flagged for a closer look

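The effect of 5 µM HPTE differed between FSH-treated and basal cells at 476 probe sets and between FSH-treated and cAMP-treated cells at 640, by a limma test of the difference of effects. Against basal cells the largest positive differences of effect were those of Tnfrsf11b (4.07), Pamr1 (3.86) and Acta2 (3.86), and the largest negative ones those of Havcr1 (-3.81), Gstm7 (-3.38) and Npas2 (-3.30). Against cAMP-treated cells the largest were those of Penk (4.32), Tnfrsf11b (4.14) and Tagln (4.13), and of Smoc2 (-3.33), Gal (-3.23) and Gstm7 (-3.09). In Gal, the precursor of the neuropeptide galanin, the 5 µM difference was -1.24 with FSH (adjusted p = 0.223) and 1.99 with cAMP, where levels went from 6.88, 6.21 and 5.72 to 7.62, 8.13 and 9.01. For Tagln the difference from cAMP was 2.86 (adjusted p = 0.184) when the unexposed arrays number 2 of both FSH and cAMP were left out. The groups have 3 arrays each, so no array was tested as an outlier.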

How the results depend on the processing

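At 5 against 0 µM with FSH, 2029 probe sets were called; with the replicate block the count was 4426, without unexposed number 2 and with the block 4075, without both arrays numbered 2 and with the block 4332, from the 6 arrays alone 610 and from those with the block 4361. Leaving out 1 array gave 1369 to 2019. The difference of effects from basal cells (476) was 1651 with the block, 1941 without unexposed number 2 and with the block, 825 without both arrays numbered 2, 2252 without both and with the block, 69 from numbers 1 and 2 alone, and 276 to 662 without 1 array. The difference from cAMP-treated cells (640) was 1991, 2122, 1033, 3236 and 173 under the same settings, and 387 to 777 without 1 array. The other settings moved these counts by less than 1.5 times. Of the 136 genes named, Ptgs2 alone changed sign in a setting, to 0.13 from numbers 1 and 2 alone and to 0.25 without unexposed FSH number 3 (-0.74 over all arrays, and -2.10 without unexposed number 2). Of the 105 called genes, 42 kept their call in every alternative that held them, among 18 alternatives. The fit with dim probe sets left out did not hold all of the genes named. The block pairs the arrays by number and lost no call; it added 18 among the genes named. Dim probe sets, near background on some arrays, limit what can be said of low genes. The causes of these shifts were not tested.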

Other observations

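Of 22 measured genes of the interferon response and antigen presentation, 4 rose (18.2%) and none fell at 5 µM HPTE with FSH, against 4.41% and 3.87% of all genes. Casp4, an inflammatory caspase, went from 6.27, 6.53 and 6.44 to 7.37, 8.01 and 7.87 without overlap (1.34 ± 0.26, adjusted p = 0.000928). Gbp2 rose by 0.81, B2m by 0.42 and Ifit2 by 0.53. Casp4 was called whichever of the 6 arrays was left out. It was the 1 rise called without unexposed number 3 or without exposed number 2. Without unexposed number 1, 2 members of the list rose and 1 fell. With the block 4 rose and 1 fell, where 8.06% of all genes rose and 10% fell. The call of Ifit2 was also lost without unexposed number 2 (0.48, adjusted p = 0.145) and without exposed number 1 (0.42, adjusted p = 0.241), and of the 6 omissions it survived that of exposed number 3. Casp4 also read 8.26, 9.40 and 9.83 at 10 µM with FSH, and 5.89, 6.51 and 5.85 without against 7.36, 7.41 and 7.10 with 5 µM HPTE in cAMP-treated cells.

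None of 29 mitosis genes, 26 DNA replication genes, 11 AhR targets and 21 genes of the mitochondrial respiratory chain was called in limma over all arrays. At an unadjusted p under 0.05, 1 mitosis gene was higher and 3 were lower, and no DNA replication gene passed. At the same threshold 1 AhR target and 5 respiratory chain genes were lower, and none of either list was higher. Among all genes 7.99% were higher and 10.7% lower. With the block 3 mitosis genes (2 higher, 1 lower) and 6 respiratory chain genes (2 higher, 4 lower) were called, where 8.06% of all genes were higher and 10% lower. Cdk1 (0.54, adjusted p = 0.231) and the kinesin gene Kif23 (0.69, adjusted p = 0.358) passed without unexposed number 2, at 0.85 and 1.22, and with the block (adjusted p = 0.0307 and 0.0469), while Kif11 was at -0.14. Of 22 Nrf2 targets 1 fell, the malic enzyme gene Me1 (-0.81 ± 0.16, adjusted p = 0.00117), and the glutathione synthesis gene Gclc passed without unexposed number 2 (-1.08) but not with the block (adjusted p = 0.0746). Among 15 p53 and growth arrest genes Gadd45b rose from 7.79, 8.63 and 8.47 to 9.67, 10.66 and 11.16 (2.20 ± 0.37, adjusted p = 0.000211), and 2 of the list rose without unexposed number 2. Gas2 fell by 0.72, a call lost at -0.72 to -0.64 without unexposed numbers 1 or 2 or exposed numbers 2 or 3. Of 20 hypoxia and glycolysis genes 1 rose, the vasodilator peptide gene Adm (1.66 ± 0.39, adjusted p = 0.00648), which was not called without exposed number 3 (1.27, adjusted p = 0.0742). None of that list fell over all arrays and 1 did without unexposed number 2. The calls over all arrays were 4.55% of the Nrf2 list, 6.67% each way of the p53 list and 5% of the hypoxia list. Among all genes 4.41% rose and 3.87% fell, so these shares lay near those of all genes.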
